A study of Mus musculus with 5 samples.

Results

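Antibody secretion depends on a large set of genes that equip the endoplasmic reticulum (ER) to take in, fold and check proteins, and 37 of these genes were followed here in germinal centre B cells with and without floxed Rel alleles (Rel encodes c-Rel, a subunit of NF-kB). The 37 genes were chosen by name as plasma cell markers, ER chaperones, ER-associated degradation genes and the regulators of the unfolded protein response, and all 37 were on the array, among 18194 genes that probe sets of a single symbol covered. They were followed in 5 groups by role, of 5 plasma cell markers, 6 sensors and transcription factors, 16 chaperones and folding enzymes, 7 ER-associated degradation genes and 3 genes of protein entry into the ER. Of the 37, 36 passed the filter on dim probe sets, and Tnfrsf17 did not.

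Germinal centre B cells were sorted by flow cytometry from spleens of C57BL/6 littermates aged 12 weeks, 7 days after sheep red blood cells were injected as the immunogen. The WT group (n = 3 arrays) carried Cg1-Cre alone and was sorted as eGFP-negative, and the REL group (n = 2 arrays) carried Cg1-Cre with relfl/fl alleles and was sorted as eGFP-positive. Both groups therefore carry Cre, and the sorting gate for eGFP differs between them. Cg1-Cre is driven from the immunoglobulin gamma 1 constant region locus, which is active in B cells after activation, so Rel is intact in cells before that stage. Neither the deleted exons nor a separate mouse for each array is given in the labels, so p-values measure only how far these samples spread, and that spread may be technical. RNA was amplified before labelling and hybridized to 1 single-colour Affymetrix array per sample, and values are MAS5 signals on a linear scale without a unit.

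As background, a B cell that becomes a plasma cell expands its ER many times, and unfolded proteins in the ER are sensed by IRE1 (encoded by Ern1), ATF6 and PERK. IRE1 splices the Xbp1 mRNA, and the spliced form encodes the transcription factor that plasma cells need for secretion, while PERK raises translation of ATF4, which acts upstream of CHOP (encoded by Ddit3). Chaperones then fold client proteins, and those that fail are drawn back across the ER membrane and degraded, a process called ER-associated degradation. Germinal centre B cells themselves secrete little antibody, and a small share of them is on the way to the plasma cell fate.

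The arrays had 2% trimmed mean signals of 500 and median signals of 30.1 to 54.6. Rel itself had signals of 492, 134 and 206 in WT against 18.6 and 85.2 in REL, without overlap (log2 difference −2.12, SE 0.73, limma adjusted p = 0.469). Whether the probe set lies in the deleted sequence is not known, so what this difference says of the genotype was not tested. Of the 15 listed germinal centre B cell markers 12 were measured, among them Ms4a1 (12227 to 14851 over the 5 arrays), Cd79b (10940 to 14647) and Bcl6 (7619 to 10515), and the summed signal of the 12 overlapped between the groups (64910 to 78307 in WT, 64403 and 71742 in REL). Of the 12, 8 lay below 0, and 2 did so without overlap, Rgs13 (4960 to 6058 in WT, 4514 and 3321 in REL, −0.54) and Gcsam (3726 to 4298 in WT, 3368 and 2442 in REL, −0.45), named after their values were seen. Of all 11329 genes tested 6344 lay below 0, and 14.2% were lower on both REL arrays than on every WT array. Signals of another cell type moved with the group. The summed signal of all 18 macrophage and monocyte markers on the array was 2049, 2492 and 1398 in WT against 9018 and 7365 in REL, and 13 of the 18 were higher on each REL array than on any WT array. The brightest 3, Mpeg1, Lyz1 and Lyz2, had log2 differences of 1.12, 3.31 and 3.08. The summed signals of neutrophil markers (166 to 1342 in WT, 410 and 111 in REL) and T cell markers (207 to 491 in WT, 809 and 272 in REL) overlapped in part, and those of erythroid markers were 128 to 544 in WT and 125 and 56.6 in REL. Of the defining macrophage markers, picked after their values were seen, Vcam1 was near 0 in WT (0.833 to 2.46) and at 671 and 390 in REL, and Csf1r was at 8.18 to 33.1 in WT against 565 and 528 in REL, whereas Adgre1 lay lower in REL (120 and 116 against 154 to 435) and Cd68 overlapped (297 to 460 in WT, 242 and 833 in REL). The middle probe set of 18S ribosomal RNA was at 8696 to 9822 in WT against 11953 and 13417 in REL. Its 5′ probe set was at 293 to 858 in WT against 1671 and 1984 in REL. The ratio of the 3′ to the 5′ control probe set of Actb was 2.45 on WT replicate 3 and 1.58 to 1.73 on the other arrays. For Gapdh it was 1.71 on WT replicate 3 and 1.42 to 1.57 on the others. The part of the macrophage signals, the 18S signals and these ratios in the values below was not tested.

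The design holds a single comparison, REL against WT, in germinal centre B cells that carry Cre. The Rel alleles and the eGFP sorting gate differ together between these groups, so the 2 cannot be told apart. Differences are on the log2(signal + 16) scale, as REL minus WT, from a limma fit over 11329 genes, with the brightest probe set standing for a gene, and calls required an adjusted p under 0.05. None of the 36 measured members was called, against 0% of all genes tested, and their adjusted p ran from 0.461 to 0.999. At an unadjusted p under 0.05 there were 2 members, Syvn1 higher and Sdc1 lower, against 8.33% of all genes (3.36% higher and 4.97% lower). The REL arrays both exceeded the WT arrays in 8 members and both fell short of them in 4, against 10% and 14.2% of all genes. A difference exceeded its own SE upward in 8 members and downward in 3, against 17.1% and 23.9% of all genes. The members stood at a median of −0.00 with 18 above 0 and 18 below, and all genes at −0.06 with 44% above 0. The interval of the difference is the more informative figure for most members. The 95% confidence interval stayed within 1 log2 unit of 0 in 21 of the 36, against 3408 of all 11329 genes. The median SE was 0.26 over the members and 0.46 over all genes. The fit lets the variance follow the mean signal, so these widths depend on brightness and on that trend. Without the trend, the SE of the bright Mzb1 was 0.26 in place of 0.15, and that of the dim Ern1 was 0.45 in place of 0.62. Where a difference is smaller than its SE its sign is not settled. Median centring of the arrays shifts every gene alike, so that all genes stood at a median of 0.07 in place of −0.06, and this shift put the 10 members that lay just below 0 above it. In bulk samples fewer cells of a type and less RNA per cell cannot be told apart.

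**Figure D1:**
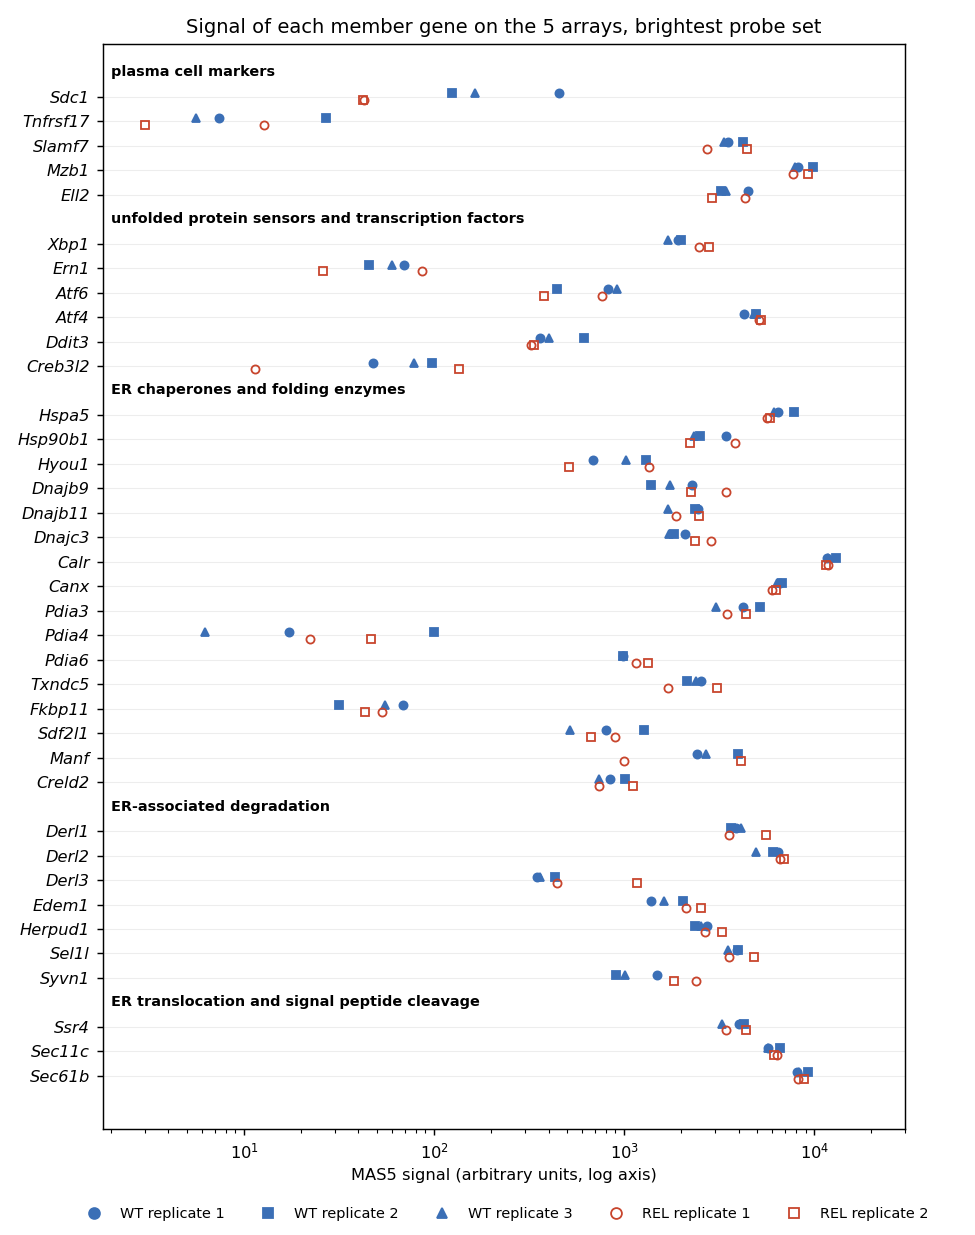
Signal of the brightest probe set of each of the 37 genes on the 5 arrays, on a log axis, with WT arrays as filled blue and REL arrays as open red symbols, and the genes grouped by role. Most genes overlap between the groups, while 8 measured genes are higher on both REL arrays than on every WT array and 4 are lower. Among them, Xbp1 is higher (2469 and 2805 against 1708 to 1985). Sdc1 is lower by the probe set shown (42.6 and 42.4 against 125 to 455), and its probe sets disagree in direction.

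The sensors and transcription factors of the unfolded protein response lay on both sides of 0, with 2 of 6 above it. Xbp1, the transcription factor of the IRE1 branch, had signals of 1916, 1985 and 1708 in WT against 2469 and 2805 in REL. The REL arrays exceeded the WT arrays without overlap, by 1.41-fold on average (95% confidence interval 0.989 to 2.00). On the log2 scale this was 0.49 with an SE of 0.23 (limma adjusted p = 0.612), and over the alternatives it ran from 0.40 to 0.63. The remaining 3 Xbp1 probe sets showed the same order without overlap. They read 1745, 1945 and 1812 in WT against 2389 and 2187 in REL, 1137, 1043 and 812 against 1567 and 1534, and 1202, 954 and 713 against 1296 and 1469, with log2 differences of 0.32, 0.64 and 0.55. Among passing probe sets of all genes, 10.8% had both REL arrays above the WT range. Probe sets of a gene share the same RNA and the same arrays, so that they repeat the measurement and not the sample. Whether the spliced or the unspliced mRNA changed is not analysed here.

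Atf4, the transcription factor of the PERK branch, had signals of 4274, 4924 and 4805 in WT against 5133 and 5244 in REL. The REL arrays lay above the WT arrays by little (0.15, SE 0.16), and a second probe set, with 2478 to 2813 in WT against 3441 and 2029 in REL, overlapped. Ddit3, the gene for the pro-apoptotic factor CHOP, was at 362, 617 and 403 in WT against 324 and 336 in REL, below every WT array (−0.43, SE 0.46). Its second probe set overlapped, with 52.7 to 247 in WT against 39.8 and 240 in REL. Atf6, the membrane-bound sensor that is cut into a transcription factor, was at 821, 443 and 916 in WT against 762 and 378 in REL, a difference of −0.36 (SE 0.48). All 3 of its probe sets lay below 0, and the second brightest, with 540 to 869 in WT against 412 and 157 in REL, did not overlap (−1.36). Ern1, which encodes IRE1 itself, was dim, with 45.4 to 69.3 in WT against 86.8 and 26.1 in REL (−0.16, SE 0.62), and its 2 other passing probe sets stood at 0.75 and −0.19. Creb3l2, a relative of ATF6 that acts in secretory cells, was at 47.5 to 97.8 in WT and spread widely in REL, at 11.5 and 136 (−0.45, SE 0.77). The REL arrays disagree too much for a direction in the last 2 genes. Over the 6 genes the median was −0.26, and it was 0.14 without REL replicate 2 and −0.12 without REL replicate 1.

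**Figure D2:**
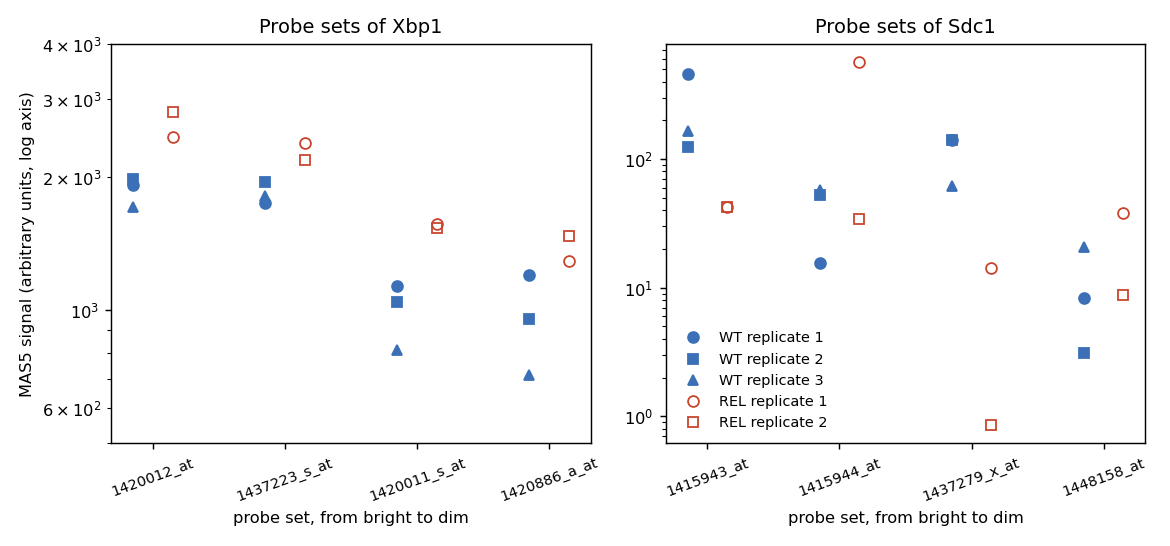
Signal of the 4 probe sets of Xbp1 (left) and of Sdc1 (right) on each array, on log axes, with WT as filled blue and REL as open red symbols. In all 4 Xbp1 probe sets both REL arrays lie above the 3 WT arrays, while the Sdc1 probe sets disagree, 1415944_at having its highest signal on REL replicate 1 (566) and 1437279_x_at its lowest on REL replicate 2 (0.853).

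Of the plasma cell markers, only Sdc1 had a probe set that separated the groups among those that passed the filter, and the 3 other measured genes overlapped. Sdc1 encodes syndecan-1 (CD138), the surface proteoglycan used to sort plasma cells. Its brightest probe set, 1415943_at, had signals of 455, 125 and 164 in WT against 42.6 and 42.4 in REL, below every WT array (−1.96, SE 0.66, limma adjusted p = 0.461). The probe set 1437279_x_at was at 141, 141 and 61.5 in WT against 14.3 and 0.853 in REL, likewise without overlap (−2.46). The probe set 1415944_at pointed the other way, with 15.4, 52.6 and 57.9 in WT against 566 and 34.1 in REL (1.66), and 1448158_at, which did not pass the filter, was at 3.12 to 20.6 in WT against 38.1 and 8.80 in REL (0.51). On 1415944_at REL replicate 1 alone was high, and REL replicate 2 lay within the WT range. When WT replicate 1 or 3 was left out and the probe sets were chosen again, 1415944_at became the brightest and the gene stood at 1.26 and 1.88. The direction of Sdc1 therefore rests on the choice of probe set.

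Slamf7, a surface receptor of plasma cells, was at 3532, 4197 and 3341 in WT against 2720 and 4408 in REL, with the REL arrays on either side of the WT range (−0.08, SE 0.24). Mzb1, an ER protein that helps to assemble immunoglobulin M, was at 8221, 9830 and 7921 in WT against 7697 and 9223 in REL (−0.03, SE 0.15), with a 95% confidence interval of −0.38 to 0.31. Ell2, the elongation factor that favours the secreted form of the heavy chain mRNA, was at 4504, 3216 and 3423 in WT against 4330 and 2903 in REL (−0.05, SE 0.24). These 3 genes overlapped between the groups, and their 95% confidence intervals allowed changes of 0.649-fold to 1.40-fold. Tnfrsf17, which encodes the survival receptor BCMA of plasma cells, was dim on all 5 arrays, with 5.59 to 27.1 in WT against 12.7 and 3.01 in REL. Over the 4 measured markers the median was −0.07, and 0 of the 4 lay above 0. The common shift of median centring put 3 of the 4 above 0, so that only their distance from all genes is interpretable (−0.00).

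The ER chaperones are known targets of the stress sensors through the ER stress element (ERSE), in which CCAAT and CCACG are set 9 bases apart. The motif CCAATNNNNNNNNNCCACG was looked for on both strands in RefSeq start-site windows (GRCm38.p6) of 250 bases before and 50 bases after each gene start. It was found in 9 of the 31 members with a window, and in 37 of all 27025 genes with a window (0.137%). Of the 9 genes 7 were chaperones or folding enzymes and 2, Syvn1 and Derl3, belong to ER-associated degradation. No plasma cell marker, sensor, transcription factor or entry gene with a window had a match. Mzb1, Atf6, Sec11c, Derl1, Hyou1 and Manf had no window and were not searched. The 10 matches, read in the direction of the motif and with its fixed bases in capitals, are shown because the same motif stands before chaperone and degradation genes.
Hspa5 (chr2:34772025-34772043, plus strand): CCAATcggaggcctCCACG
Hsp90b1 (chr10:86705533-86705551, plus strand): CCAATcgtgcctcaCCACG
Hsp90b1 (chr10:86705638-86705656, minus strand): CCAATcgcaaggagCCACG
Calr (chr8:84847075-84847093, plus strand): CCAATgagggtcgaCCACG
Canx (chr11:50325800-50325818, minus strand): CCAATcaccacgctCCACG
Pdia6 (chr12:17266491-17266509, plus strand): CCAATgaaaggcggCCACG
Dnajc3 (chr14:118937827-118937845, plus strand): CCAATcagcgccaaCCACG
Creld2 (chr15:88819520-88819538, minus strand): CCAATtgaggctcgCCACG
Syvn1 (chr19:6046532-6046550, plus strand): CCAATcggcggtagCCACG
Derl3 (chr10:75893242-75893260, minus strand): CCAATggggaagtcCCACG

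All 10 lay upstream of the gene start, from 212 to 26 bases before it. A related arrangement, ERSE-II, has ATTGG and CCACG with 1 base between them and shares the CCACG block of ERSE. Searched on both strands, it was found in 0.0444% of all genes with a window and in 2 members. They were Herpud1 (ATTGGgCCACG, chr8:94386377-94386387, 52 to 42 bases before the start) and Dnajb11 (ATTGGcCCACG, chr16:22857852-22857862, just after the start). The 250 bases upstream of Hspa5, the classical target, and of Syvn1 and Derl3, whose differences were the largest among the degradation genes and which were chosen after their values were seen, are given 5′ to 3′ on the strand of the gene with the fixed bases of the match in capitals. In Derl3 the match runs in the opposite direction.
Hspa5 (chr2:34771840-34772089, plus strand): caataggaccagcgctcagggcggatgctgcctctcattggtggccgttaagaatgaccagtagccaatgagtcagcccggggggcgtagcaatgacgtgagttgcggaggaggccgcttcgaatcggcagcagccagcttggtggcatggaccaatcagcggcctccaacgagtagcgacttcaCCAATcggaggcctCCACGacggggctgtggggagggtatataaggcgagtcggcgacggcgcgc
Syvn1 (chr19:6046326-6046575, plus strand): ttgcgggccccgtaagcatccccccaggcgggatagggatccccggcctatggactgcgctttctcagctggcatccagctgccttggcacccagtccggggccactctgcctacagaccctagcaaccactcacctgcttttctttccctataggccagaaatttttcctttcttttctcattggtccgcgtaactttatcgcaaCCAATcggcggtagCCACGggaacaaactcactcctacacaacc
Derl3 (chr10:75893148-75893397, plus strand): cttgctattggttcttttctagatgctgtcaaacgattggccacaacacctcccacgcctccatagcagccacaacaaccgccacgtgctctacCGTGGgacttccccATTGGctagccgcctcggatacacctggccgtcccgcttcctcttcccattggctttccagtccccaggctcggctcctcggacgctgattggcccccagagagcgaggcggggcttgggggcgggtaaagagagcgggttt
The XBP1 binding core ACGTGG, searched on both strands, was in the windows of 7 members and of 9.4% of all genes with a window. A match describes the letters of the window and does not show that a factor binds there. The 9 genes did not share a direction in REL, since 6 lay above 0 and 3 below, from −0.24 for Hspa5 to 0.91 for Syvn1, with a median of 0.10. The 21 measured members whose window holds no ERSE had a median of −0.01, with 10 above 0 and 11 below.

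**Figure D3:**
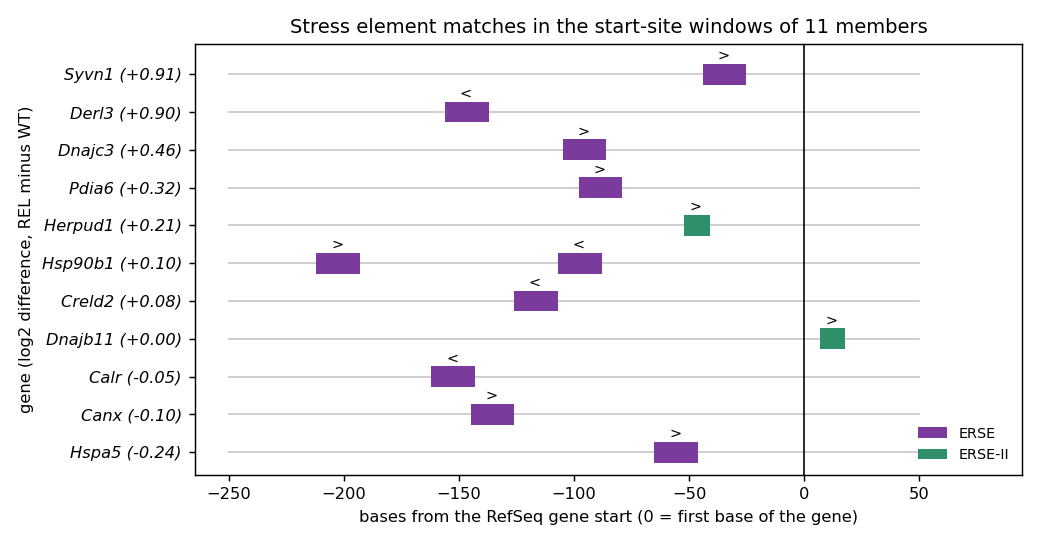
Position of the ERSE matches (purple) and ERSE-II matches (green) in the start-site windows of 11 members, in bases from the gene start, with the arrowheads giving the direction of the motif relative to the gene and the log2 difference of each gene in brackets. The genes are ordered by that difference, from Syvn1 (0.91) to Hspa5 (−0.24). Only members with a match are drawn, so the order does not show how matches relate to the difference.

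The chaperones and folding enzymes as a group stood where all genes stood. Of 16 measured, 7 lay above 0 and 9 below, the median was −0.04 (0.03 relative to all genes), and 0 passed the test in either direction. Hspa5, the gene for BiP, the main ER Hsp70 chaperone and the textbook readout of ER stress, had signals of 6480, 7799 and 6128 in WT against 5623 and 5826 in REL. The REL arrays lay under the WT range, at 0.846 of the WT level (95% confidence interval 0.659 to 1.09). The log2 difference was −0.24 with an SE of 0.16 (limma adjusted p = 0.737), and it stayed below 0 in every alternative (−0.31 to −0.105). Its second probe set overlapped, with 3871 to 6008 in WT against 4041 and 4263 in REL. Hsp90b1, which encodes GRP94, the ER Hsp90, was at 3424, 2514 and 2341 in WT against 3842 and 2226 in REL (0.10, SE 0.28). Its dimmer probe set did not overlap, with 1427 to 1988 in WT against 2069 and 2004 in REL (0.35). Hyou1, a nucleotide exchange factor for BiP, was at 690, 1301 and 1017 in WT against 1348 and 514 in REL, outside the WT range on both sides (−0.21, SE 0.46), and its second passing probe set gave 0.41 with overlap.

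The J-domain partners of BiP held the largest positive differences of this group. Dnajb9, which encodes ERdj4, was at 2281, 1381 and 1749 in WT against 3439 and 2259 in REL, and REL replicate 2 lay just below WT replicate 1 (0.65, SE 0.29, limma adjusted p = 0.604). Dnajc3, which encodes the co-chaperone p58IPK, was at 2091, 1833 and 1727 in WT against 2848 and 2359 in REL without overlap (0.46, SE 0.23). Of its 5 passing probe sets 3 lay above 0, and a dimmer one that also did not overlap gave 0.55 (479 to 793 in WT, 872 and 937 in REL). Dnajb11, which encodes ERdj3, was at 2445, 2368 and 1704 in WT against 1874 and 2462 in REL (0.00, SE 0.26). Of these 3, Dnajb9 and Dnajc3 lay above 0 by more than their own SE, as did Pdia6 among the 16 genes of the group.

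The lectin chaperones of glycoproteins were among the most precisely measured members. Calr, the gene for calreticulin, was at 11614, 12940 and 11806 in WT against 11848 and 11523 in REL (−0.05, SE 0.12), and its 95% confidence interval of 0.807-fold to 1.15-fold leaves room for a small change at most. Canx, the gene for calnexin, was at 6597, 6737 and 6363 in WT against 5986 and 6295 in REL, below every WT array by little (−0.10, SE 0.14), and at 0.04 after the common shift of median centring. Its 2 dimmer probe sets, with 633 to 952 and 576 to 615 in WT, were at 436 and 496 and at 444 and 207 in REL, also below every WT array (−0.69 and −0.93). The 3 probe sets thus shared an order and not a size. Among passing probe sets of all genes, 13.4% had both REL arrays under the WT range.

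The disulfide isomerases and the remaining folding factors overlapped in all but 1 case. Pdia6 was at 990, 987 and 981 in WT against 1151 and 1331 in REL, above every WT array (0.32, SE 0.29). Pdia3, which works with calreticulin and calnexin, was at 4197, 5184 and 3034 in WT against 3469 and 4368 in REL (−0.05, SE 0.25), and Pdia4 was dim, with 6.22 to 99.5 in WT against 22.4 and 46.7 in REL (0.16, SE 0.76). Txndc5, a thioredoxin-domain isomerase, was at 2548, 2144 and 2376 in WT against 1705 and 3095 in REL, on either side of the WT range (−0.03, SE 0.28). Fkbp11, a prolyl isomerase of secretory cells, was dim as well (31.8 to 68.2 in WT, 53.2 and 43.4 in REL, −0.04). Sdf2l1, which keeps the BiP and ERdj3 cycle going, was at 801, 1272 and 516 in WT against 891 and 669 in REL (−0.06), and Creld2, an ER stress-inducible protein with EGF-like domains, at 843, 1012 and 733 and at 737 and 1112 (0.08). Manf, a secreted ER stress factor, differed widely between the REL arrays, with 996 on REL replicate 1 and 4120 on REL replicate 2 against 2427, 3977 and 2710 in WT. Its difference of −0.55 (SE 0.50) stood at 0.47 without REL replicate 1 and at −1.56 without REL replicate 2.

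**Figure D4:**
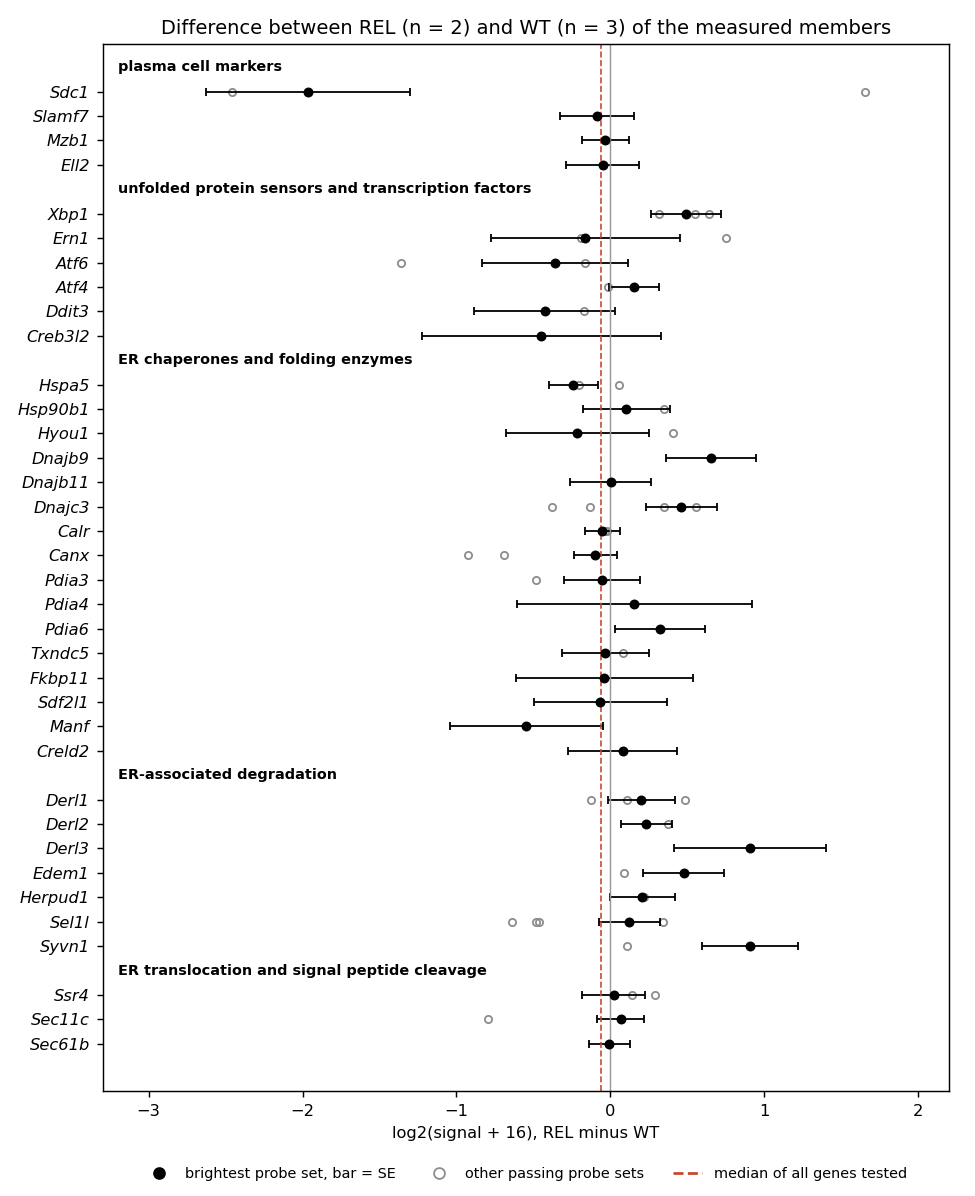
Log2 difference (REL minus WT) of the 36 measured members, grouped by role, with the brightest probe set as a filled point and its SE as a bar, the other passing probe sets as open grey points, and the median of all genes tested (−0.06) as a dashed line. The 7 ER-associated degradation genes all lie above 0, from 0.12 to 0.91, whereas the chaperones lie on both sides.

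The 7 ER-associated degradation genes all lay above 0 by their brightest probe set, with a median of 0.23, or 0.30 relative to all genes, and 0 of them passed the test. Among all genes 44% lay above 0. By the brightest probe set, the groups did not overlap in 4 of the 7 (Syvn1, Derl3, Edem1 and Derl2), REL being higher, as in 10% of all genes. Of the 18 passing probe sets of the 7 genes, 4 had both REL arrays above the WT range and 1 had both under it. Among passing probe sets of all genes these shares were 10.8% and 13.4%. Syvn1 encodes HRD1, the ubiquitin ligase at the centre of the degradation channel, and had signals of 1495, 905 and 1011 in WT against 2382 and 1839 in REL. The groups did not overlap, and the difference of 0.91 (SE 0.31) was 1.87-fold with a 95% confidence interval of 1.15 to 3.04 (limma adjusted p = 0.467). Its second probe set showed far less, with 379, 492 and 370 in WT against 516 and 380 in REL (0.11). Sel1l, the partner that stabilizes HRD1, was at 3900, 3982 and 3524 in WT against 3563 and 4807 in REL (0.12, SE 0.20). Of its 4 dimmer probe sets 3 lay below 0, and one of them, with 631 to 699 in WT against 397 and 462 in REL, did so without overlap (−0.64).

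The derlins, membrane proteins that pass substrates through the ER membrane, differed in size. Derl3, the family member most tied to secretory cells, was at 346, 432 and 362 in WT against 444 and 1171 in REL (0.90, SE 0.49, limma adjusted p = 0.676). REL replicate 1 lay barely above the WT range and REL replicate 2 far above it, and without REL replicate 2 the difference was 0.22. Derl2 was at 6429, 6066 and 4918 in WT against 6608 and 6957 in REL, just above every WT array (0.23, SE 0.17). Its second probe set overlapped, with 310 to 1187 in WT against 963 and 493 in REL (0.38). Derl1 was at 3877, 3654 and 4108 in WT against 3551 and 5599 in REL, high on REL replicate 2 only (0.20, SE 0.22), and 3 of its 4 probe sets lay above 0.

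Edem1, the mannosidase-like protein that hands misfolded glycoproteins to degradation, was at 1389, 2037 and 1622 in WT against 2118 and 2542 in REL (0.48, SE 0.26). REL replicate 1 exceeded the highest WT array by little, and the second probe set, with 1334 to 1481 in WT against 1653 and 1341 in REL, overlapped (0.09). Herpud1, a stress-inducible scaffold of the HRD1 complex, was at 2740, 2372 and 2537 in WT against 2660 and 3257 in REL (0.21, SE 0.21), and its second probe set gave 0.22. Over all 18 passing probe sets of the 7 genes 14 lay above 0, against 46.2% of passing probe sets of all genes. When the passing probe sets of each gene were averaged, 6 of the 7 genes lay above 0, and without REL replicate 2, 5 of the 7, with Derl1 and Sel1l below. The group's median was 0.20 without REL replicate 2 and 0.53 without REL replicate 1, so that the size follows REL replicate 2.

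The 3 genes of protein entry into the ER were nearly level and narrowly bounded. Sec61b, a subunit of the translocation channel, was at 8127, 9243 and 8313 in WT against 8168 and 8866 in REL (−0.01, SE 0.13, 95% confidence interval 0.808-fold to 1.23-fold). Ssr4, a subunit of the translocon-associated protein complex, was at 4000, 4270 and 3266 in WT against 3417 and 4398 in REL (0.02, SE 0.21). Sec11c, a catalytic subunit of the signal peptidase, was at 5715, 6585 and 5689 in WT against 6384 and 6155 in REL (0.07, SE 0.15), while its dimmer probe set, with 946 to 1612 in WT against 1011 and 430 in REL, gave −0.80. All 3 genes overlapped between the groups.

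**Figure D5:**
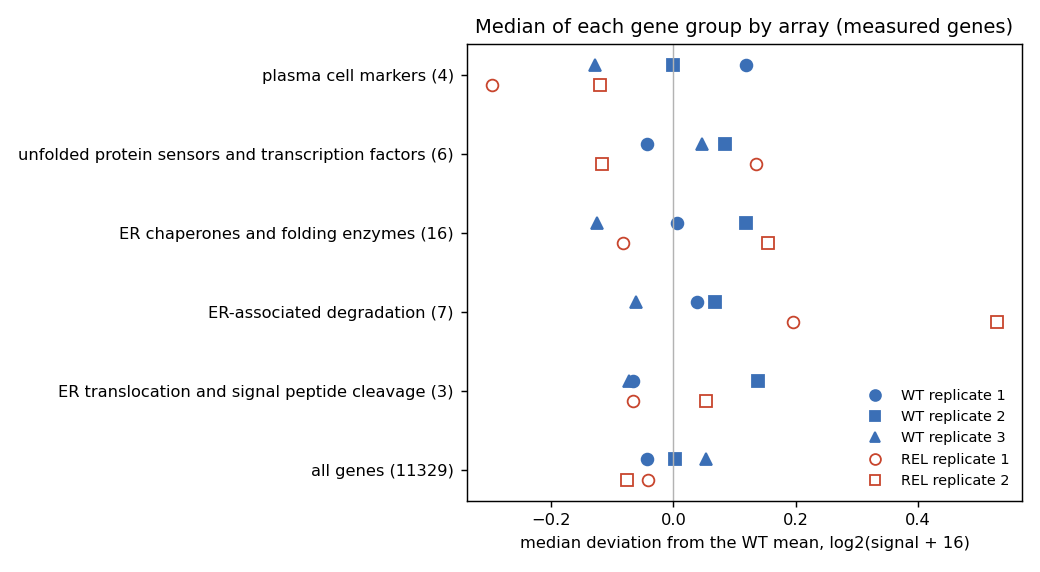
Median deviation of each gene group from the WT mean on every array, in log2(signal + 16) units, with the number of measured genes in brackets, WT as filled blue and REL as open red symbols. The ER-associated degradation group lies at 0.20 and 0.53 on the REL arrays and at −0.06 to 0.07 on the WT arrays, while the chaperones lie at −0.08 and 0.15 on the REL arrays and at −0.13 to 0.12 on the WT arrays.

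Array by array, the groups differed in how far the REL replicates parted. The chaperones of REL replicate 1 lay within the WT range and those of REL replicate 2 just above it (−0.08 and 0.15, against −0.13 to 0.12 in WT). The ER-associated degradation genes lay above the WT range on both REL arrays (0.20 and 0.53, against −0.06 to 0.07), and 1 of the 7, Syvn1, was higher on REL replicate 1 than on REL replicate 2. The plasma cell markers were at −0.30 and −0.12 in REL and at −0.13 to 0.12 in WT. On the same arrays all genes stood at −0.04 and −0.08 in REL and at −0.04 to 0.05 in WT, and the macrophage and monocyte markers measured in the fit at 3.24 and 2.36 in REL and at −0.20 to 0.08 in WT. The part of the macrophage signal in the degradation genes was not tested.

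The wider secretory pathway was read from 7 further lists of genes, and 0 of the 100 measured genes among them passed the test. At an unadjusted p under 0.05 there were 3 higher and 3 lower, against 3.36% and 4.97% of all genes, so that these counts do not exceed the background. The PERK branch list had 6 genes above 0 and 5 below (median 0.01). Eif2ak3, which encodes PERK itself, was at 1987, 1705 and 1586 in WT against 2851 and 2776 in REL without overlap (0.68, SE 0.23, limma adjusted p = 0.461). Ddit4, a stress-induced inhibitor of mTORC1, was at 5470, 4157 and 4175 in WT against 6253 and 6398 in REL, also without overlap (0.47, SE 0.18, limma adjusted p = 0.495). Ppp1r15b, a regulatory subunit of the phosphatase that reverses the PERK signal, was level (0.01, SE 0.15).

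The other lists had medians between −0.14 and 0.00, against −0.06 for all genes. Of the other ER-associated degradation genes 5 of 16 lay above 0 (median −0.08), among them Aup1 at 0.02, Nploc4 at −0.08 and Vcp, the ATPase that pulls substrates from the membrane, at 0.25 with 3150 to 3795 in WT against 2968 and 5694 in REL. They did not show the one-sided pattern of the 7 degradation members, and the difference between these lists was not tested. N-glycosylation genes had a median of 0.00, with 7 of 14 above 0 and the catalytic oligosaccharyltransferase subunits Stt3a at −0.02 and Stt3b at −0.03, beside Rpn1 at 0.19. Other folding and redox genes had a median of −0.04 (6 of 14 above 0), with the disulfide isomerase P4hb at 0.04, Erp44 at −0.13 and the oxidase Ero1b at 0.04. Other translocation genes stood at −0.13 (6 of 18 above 0; Srp14 −0.17, Srp9 −0.15, Ssr1 0.00) and ER to Golgi transport genes at −0.14 (5 of 16 above 0; Kdelr2 0.29, Sar1b −0.16, Sar1a −0.39). In the ER to Golgi list 7 of the 16 genes were lower on each REL array than on any WT array, against 14.2% of all genes, and 3 were higher, against 10%.

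Other plasma cell genes gave a median of −0.03, with 4 of 11 above 0. Jchain, the joining chain of secreted antibody polymers, was at 11379, 13129 and 12519 in WT against 11600 and 12528 in REL (−0.03, SE 0.12). Eaf2, an elongation factor partner expressed in germinal centre B cells, was at −0.13, and Irf4, a transcription factor needed for plasma cell differentiation, was at 4732, 5362 and 3316 in WT against 3014 and 3514 in REL (−0.43, SE 0.23). The groups overlapped in each of the 3 genes. In 12 of the 22 members with more than 1 passing probe set all probe sets pointed one way, which was 54.5% of them, against 43.9% of the genes of the array with more than 1.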

How the data were processed

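Gene expression was measured in 5 samples, 3 WT and 2 REL, grouped by their titles in the labels. The authors deposited a table of linear signal intensities for 45101 probe sets, made with MAS5 per the submitters' processing notes. RNA was amplified before labelling, per the labels' protocols. MAS5 treats each array alone, and its dim signals scatter strongly after a log transform. Gene symbols came from the array's platform annotation (34958 with 1 symbol, 932 with several and 9211 with none), and those without a single symbol were left out. The 87 probe sets of the 37 members carry the current RefSeq symbol.

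Signals were transformed as log2(signal + 16), which understates differences of dim genes. The lowest 40% of single-symbol probe sets by mean signal (below 33.0) were left out, which left 20975 probe sets, and the brightest per gene was kept. The 11329 genes were fitted in R 4.3.3 by lmFit and trended eBayes of limma 3.58.1 (3 residual and 6.42 prior degrees of freedom), with two-sided p-values adjusted by Benjamini-Hochberg over all genes. The number of arrays limits the precision. Data of 11329 genes were simulated with normal noise over 10 runs of 3 against 2 arrays, with 200 genes changed by 2-fold to 16-fold. In these runs 22.8% of 2-fold, 61% of 4-fold and 99.2% of 16-fold changes were recovered. In the deposited data Vcam1, with a log2 difference of 4.89, was not called (limma adjusted p = 0.0617). The simulated rates may therefore overstate what this comparison recovers.

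The members and lists were chosen with earlier results of these data known, so counts and medians over them are descriptions and were not tested. All 37 members are named, and of other lists the 3 genes with the highest mean signal; other genes singled out after their values were seen are said to be so. List symbols Ero1l, Ero1lb, Ufd1l and Igj were matched to the array through RefSeq synonyms. Alternatives changed the pseudocount (1 or 64), the filter (none or 60%), the scaling (quantile or median), the probe set rule (mean over passing probe sets), the trend (none) or the terms (replicate number as a block), or left out each array. Added after seeing the data were a 40% filter on the mean log2 of all probe sets, a fit of every probe set, and medians relative to all genes. Start-site sequences came from RefSeq (GRCm38.p6), with a window for 31 of the 37 members. Tables and plots used Python 3.11.15 (matplotlib 3.10.9, scipy 1.17.1, numpy 2.4.6, pandas 2.3.3).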

Additional observations from a re-analysis of the deposited data

How the results depend on the processing

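No member was called under any of the alternatives run, and the lowest adjusted p among members was 0.138. The number of genes called over the whole array was 0 with the settings used, 1 with median centring or with the filter on mean log2 (added after seeing the data), 2 with quantile normalization, 17 with the replicate block and 0 to 8 with 1 array left out. The deviations of same-numbered arrays correlated at −0.03 and −0.01. The deviations of the 2 REL arrays mirror each other, so these correlations cannot settle whether the replicate number pairs samples. The block called 0 members. Of 715 member values recomputed, 615 kept their direction, 96 turned where the difference was smaller than its SE, and 4 turned beyond it. These 4 were Sdc1 at 1.26 and 1.88 without WT replicate 1 or 3, with the probe sets chosen again, and Manf without REL replicate 1, with either choice of probe sets (−1.56 to 0.47 over the arrays left out). The median of the plasma cell markers moved to 0.068 with median centring, and with 1 array left out it ran from −0.30 to −0.067, or to 0.015 with the probe sets chosen again. The median of the sensors and transcription factors moved to −0.11 with 64 added, −0.10 with the 60% filter, −0.12 with median centring and −0.11 with the mean of probe sets. With 1 array left out it ran from −0.23 to 0.136, or to 0.377 with the probe sets chosen again. The chaperones ran from −0.094 to 0.155 and the degradation genes from 0.196 to 0.529 with 1 array left out, and the entry genes moved to 0.156 with median centring. The causes were not tested. Fits with 1 array left out leave 1 REL array or 2 WT arrays, and a lone array is assumed to vary like the other group. Signals of dim members such as Ern1, Pdia4, Fkbp11 and Creb3l2 limit what can be said of them.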

Other observations

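In the wider secretory pathway, 4 genes outside the brightest of their lists, chosen after their values were seen, had an unadjusted p under 0.05, and limma called none of them over all genes (adjusted p = 0.403 to 0.583). The 100 measured genes of these lists held 6 at that level, against 8.33% of all genes, so the 4 are given as values and not as an excess. Both REL arrays lay outside the WT range in each. Lman1, which encodes the cargo receptor ERGIC-53 that carries glycoproteins out of the ER, was at 1552, 1481 and 1126 in WT and 355 and 761 in REL (−1.37, SE 0.40). Kdelr1, a receptor that returns ER chaperones from the Golgi, was at 999, 711 and 761 in WT and 1502 and 1927 in REL (1.05, SE 0.32). Sil1, a nucleotide exchange factor of BiP, was at 571, 472 and 747 in WT and 176 and 324 in REL (−1.24, SE 0.47). Erlin1, a membrane scaffold of ER-associated degradation, was at 1726, 1647 and 1997 in WT and 1375 and 918 in REL (−0.66, SE 0.29).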
